A study of Mus musculus with 6 samples.

Results

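The expression of 10 genes that mark the endocardium, the inner lining of the heart, and the endothelium in general was compared between the superior and the inferior part of the embryonic mouse outflow tract. The genes were Nfatc1, Npr3, Emcn, Cdh5, Pecam1, Klf2, Klf4, Cldn5, Plvap and Egfl7. They were chosen by name, and every probe set whose annotation named 1 of them and no other gene was taken, which gave 21 of the 45037 probe sets that are not controls. The series covers the outflow tract, the tube by which blood leaves the heart, in CD1 embryos at embryonic day 10.5. There were 3 pools of the superior subdomain and as many of the inferior one, 6 arrays in all of an Affymetrix mouse expression design. Each subdomain has pools numbered 1, 6 and 7. No mutation, transgene or treatment is named for any pool. A pool joins tissue of 6 littermate embryos by its label, or of 7 by the design text. Neither source says that pools are separate litters or that same-numbered pools come from the same embryos. In the region test paired by pool number, p-values measure how the region difference varies over the 3 numbers. Without the pairing they measure the spread between these pools. Either spread may be technical.

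The endocardium is a specialised endothelium. In the outflow tract it lines the cushions, and some of its cells turn into the mesenchyme from which the valves form. Blood flow acts on these cells, and flow-responsive transcription factors are among the genes that answer it. Endothelial cells are joined by cadherin and claudin contacts and carry sialomucins and adhesion molecules at the surface facing the blood. The pools hold whole tissue, in which muscle, mesenchyme, epicardium and blood lie beside the endothelium, so fewer endothelial cells and less RNA per cell cannot be told apart.

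Promoter sequences from RefSeq (build GRCm38.p6) were at hand for 6 of the 10 genes, Npr3, Emcn, Klf2, Klf4, Cldn5 and Egfl7. The 250 bases before the start site are shown for Emcn and Cldn5, which had the largest region differences described further on, and for Klf2, a flow-responsive gene that passed the test between pools and not the one between regions. The windows are chr3:137340828-137341077 on the plus strand for Emcn, chr16:18776597-18776846 on the plus strand for Cldn5 and chr8:72318812-72319061 on the plus strand for Klf2. Capitals mark GGAA, the core bound by ETS factors, in Emcn, CACCC, a motif bound by Klf factors, in Cldn5, and the MEF2 factor motif, CTA and TAG set 4 bases apart, in Klf2, each on either strand.
Emcn: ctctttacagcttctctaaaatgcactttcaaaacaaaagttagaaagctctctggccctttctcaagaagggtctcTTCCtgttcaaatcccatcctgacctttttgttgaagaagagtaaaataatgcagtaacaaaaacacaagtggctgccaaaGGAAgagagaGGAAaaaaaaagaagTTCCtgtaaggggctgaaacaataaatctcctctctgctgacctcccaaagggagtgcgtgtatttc
Cldn5: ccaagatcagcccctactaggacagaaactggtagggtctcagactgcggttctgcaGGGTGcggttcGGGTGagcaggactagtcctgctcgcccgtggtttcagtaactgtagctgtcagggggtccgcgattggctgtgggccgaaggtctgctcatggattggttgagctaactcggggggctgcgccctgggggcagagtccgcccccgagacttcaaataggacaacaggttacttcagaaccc
Klf2: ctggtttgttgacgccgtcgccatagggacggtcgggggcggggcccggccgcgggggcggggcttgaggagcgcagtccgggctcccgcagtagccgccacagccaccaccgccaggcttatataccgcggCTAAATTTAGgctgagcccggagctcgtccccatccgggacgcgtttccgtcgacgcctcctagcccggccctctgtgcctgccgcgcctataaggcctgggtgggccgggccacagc
The Emcn window held 4 matches to GGAA and the Cldn5 window 0, while 93.4% of 32851 promoter windows of this length held at least 1. The median over all windows was 3 matches to GGAA and 1 match to CACCC. The Cldn5 window held 2 matches to CACCC, found in 52% of windows, and the Emcn window held 0. The Klf2 window held 1 match to the MEF2 motif, which ends 108 bases before the start site. This motif was found in 3.2% of windows and in none of the windows of the other 5 genes. GGAA is contained in GGAAA, the core bound by NFAT factors, of which the Emcn window held 1 match. GGAAA was found in 55.6% of windows, with a median of 1 match over all windows. The Klf2 window also held 1, as did windows of Egfl7. These matches describe letters and not bound sites.

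None of the 10 genes passed the test between superior and inferior pools. In the fit paired by pool number the interval of the fold was narrow for most. Cdh5, the cadherin that defines endothelial contacts, differed by 0.03 ± 0.09 on the log2 scale (SE), a fold of 1.02 with a 95% interval of 0.879 to 1.18. Signals were those the authors made with MAS5, which sums up a probe set in 1 intensity per array after taking off mismatch signal and sets all arrays to a common scale. They were compared as log2(signal + 3.2), a scale that understates the change of dim genes. All 10 genes had at least 1 probe set above background on all 6 arrays, background being a signal of 8, the highest among 27 bacterial control probe sets. Of the 21 probe sets 19 were bright enough to be tested, which needed a mean above that of the median probe set (a signal of about 15.1).

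No probe set of the 10 genes passed an adjusted p of 0.05 (limma with the pool number as a block, Benjamini-Hochberg adjustment over all 22518 probe sets tested), while 0.16% of all probe sets did, 0.0933% being higher and 0.0666% lower in superior pools. Adjusted p ranged from 0.345 to 0.949. At an unadjusted p threshold of 0.05, 1 of the 19 passed, that of Emcn, against 11% of all probe sets. This count was 0 without pool 1 (4.49% of all), 5 without pool 6 (16.6% of all), which were Emcn and all 4 Egfl7 probe sets, and 3 without pool 7 (9.92% of all). Without the pool number in the fit, 0 of the 19 passed at either threshold, against 0% of all probe sets for the adjusted p and 3.52% for the unadjusted p. Of the 19 differences 12 were positive, meaning higher in superior pools, where 44.9% of all probe sets were positive. Signals of the regions did not overlap for 1 of the 19, against 9.21% of all probe sets, and the difference had the same sign in all 3 pools for 5 of the 19, against 34% of all.

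If pool number pairs the arrays, which no source states, the intervals limit how large a difference could have gone unseen. For 13 of the 19 probe sets the 95% interval of the fold lay within 1.5-fold in either direction, and for 18 within 2-fold. Those of Cldn5, Emcn, both tested Npr3 probe sets, 1 dim Nfatc1 probe set and 1 Egfl7 probe set reached past 1.5-fold, and that of Cldn5 past 2-fold. The paired fit has 2 residual degrees of freedom, and its intervals rest on variance shared across probe sets. Without the block, standard errors were larger, at 0.63 against 0.12 for Pecam1, 0.29 against 0.13 for Klf2 and 0.13 against 0.09 for Cdh5. The bounds given here therefore hold for the paired fit only.

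**Figure D1:**
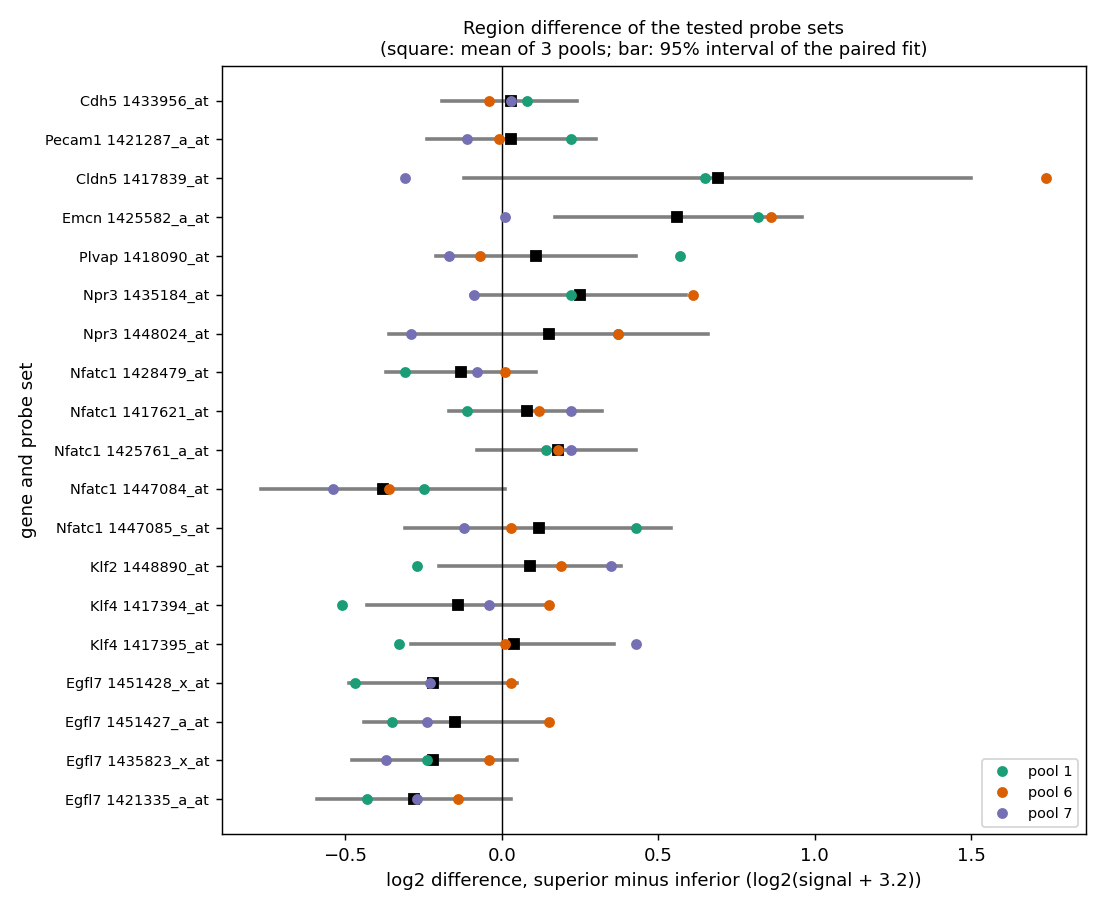
Each row is a tested probe set of the 10 genes. The x axis gives the log2 difference, superior minus inferior, on the log2(signal + 3.2) scale. Squares are the mean of 3 pools, grey bars the 95% interval of the paired fit, and coloured circles the difference within pools 1, 6 and 7. The interval of Emcn lies to the right of 0, those of the other 18 probe sets span 0, and the circles of Cldn5 are spread from -0.31 to 1.74.

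Among the contact and adhesion genes, Cdh5 (VE-cadherin) had signals of 300.2, 252 and 305.5 in superior pools 1, 6 and 7, against 283, 258.8 and 298.8 in inferior pools 1, 6 and 7, for its bright probe set 1433956_at. The 6 values lay close together and the regions overlapped. Its other probe set, 1422047_at, was above background on 2 of 3 arrays of each region and was not tested. Pecam1 (CD31), an adhesion molecule of endothelial cells that platelets and leukocytes carry too, had signals of 55, 175.9 and 168.8 in superior pools and 46.8, 177 and 182.9 in inferior pools. Pool 1 was low in both regions, and the signals of both regions lay close together within every pool, with a difference of 0.03 ± 0.12 (adjusted p = 0.947).

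Cldn5, the tight junction claudin of endothelial cells, had signals of 33.4, 49.6 and 46 in superior pools and 20.2, 12.6 and 58 in inferior pools. The superior values were higher in pools 1 and 6 and lower in pool 7, so the regions overlapped. Means were 43 ± 8.51 in superior and 30.3 ± 24.3 in inferior pools (SD, n = 3 each). The log2 difference of 0.69 ± 0.35 was the largest in size of the 19 and the least precise, with a fold interval of 0.921 to 2.83 (adjusted p = 0.511). It rested on pool 6, being 0.17 without that pool, and was 1.19 without pool 7.

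Emcn encodes endomucin, a sialomucin of the endothelial surface and of the endocardium. Its signals were 130, 97.5 and 221.5 in superior pools 1, 6 and 7, against 72.1, 52.4 and 220.2 in inferior pools. In pools 1 and 6 the superior value was the higher one, and in pool 7 the values were nearly equal, at a level above those of all other arrays. The log2 difference was 0.56 ± 0.17, a fold of 1.48 with an interval of 1.12 to 1.94 (unadjusted p = 0.0106, adjusted p = 0.345). Within pools it was 0.82, 0.86 and 0.01. Without pool 7 it was 0.84 and passed the threshold (adjusted p = 0.0324), in a fit with 1 residual degree of freedom that called 113 probe sets in all. Without pool 1 it was 0.43 and without pool 6 it was 0.42, and on leaving out single arrays without the block it ranged from 0.16 to 1.16. Adjusted p over the 18 other settings ranged from 0.0324 to 1, and this was the 1 setting in which it passed. Without the block the same log2 difference of 0.56 had a standard error of 0.54.

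Plvap, which forms the diaphragms of endothelial pores and vesicles, had signals of 346.3, 371 and 426.4 in superior pools and 232.9, 389.6 and 479 in inferior pools. The inferior array of pool 1 was the lowest and that of inferior pool 7 the highest, and the log2 difference was 0.11 ± 0.14. Npr3, the clearance receptor for natriuretic peptides and a marker of endocardium, had signals of 92.9, 110.2 and 108.1 in superior pools and 79.4, 70.9 and 115.3 in inferior pools for 1435184_at. As for Cldn5, superior was higher in pools 1 and 6 and lower in pool 7, with differences of 0.22, 0.61 and -0.09. Their mean was 0.25 ± 0.15 (adjusted p = 0.588), and it was 0.06 without pool 6 and 0.42 without pool 7. Its dimmer probe set 1448024_at gave 0.37, 0.37 and -0.29 in these pools, and a further one, 1450286_at, above background on 2 of 3 arrays of each region, was not tested.

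**Figure D2:**
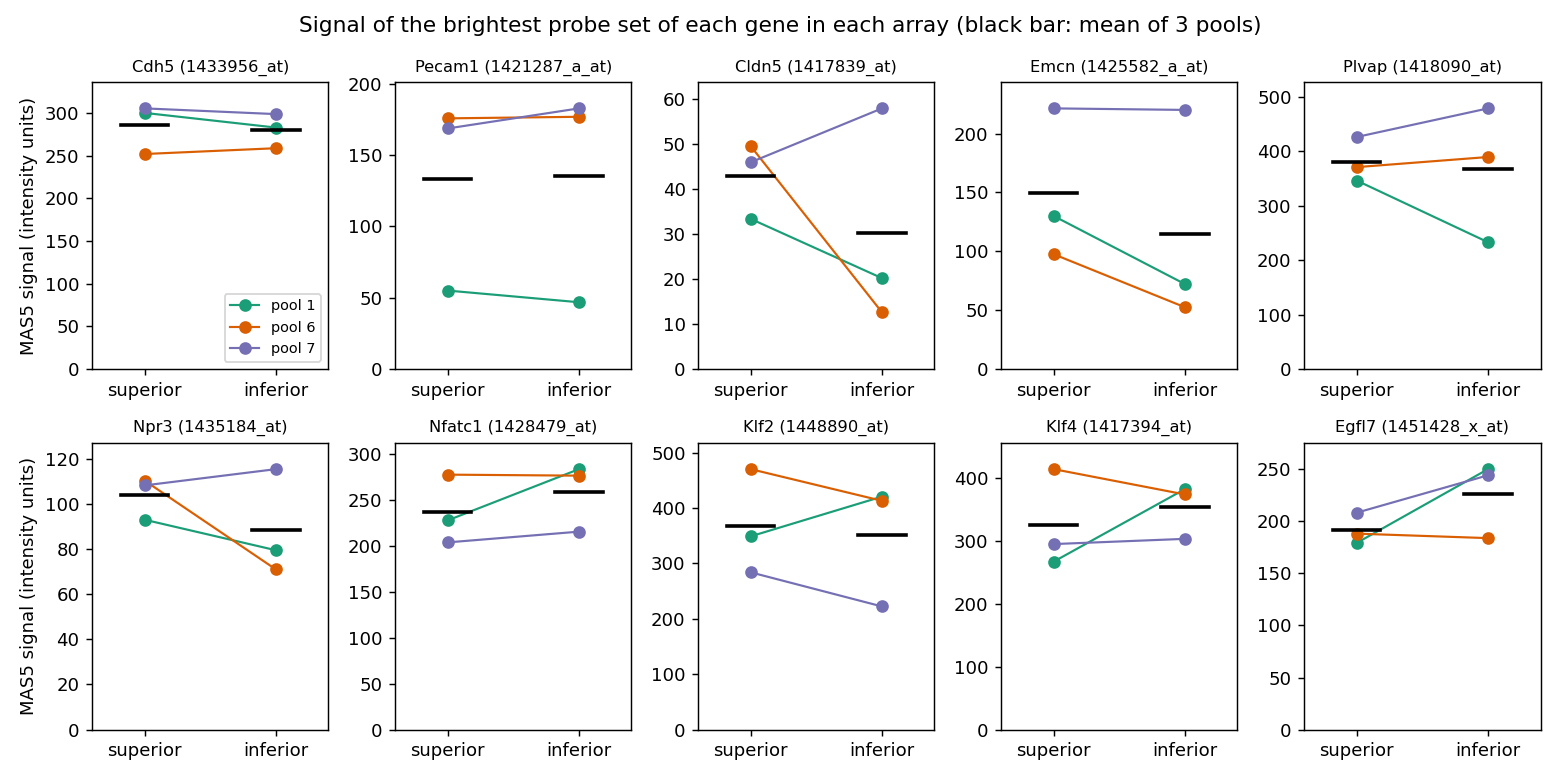
Each panel shows the MAS5 signal (y axis, linear, from 0) of the brightest probe set of a gene in superior (left) and inferior (right) tissue. Circles are arrays, lines join arrays of the same pool number and black bars are means of 3 pools. Cdh5 is flat, Pecam1 is low in both arrays of pool 1, and Cldn5, Emcn and Npr3 have their lowest values in inferior pools 1 and 6.

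The transcription factors among the 10 did not pass the region test at any of their probe sets. Nfatc1, a calcineurin-dependent factor that in the early heart marks the endocardium and is needed for its valves, had 5 probe sets, with log2 differences of -0.13 ± 0.10, 0.08 ± 0.11, 0.18 ± 0.11, -0.38 ± 0.17 and 0.12 ± 0.19. The brightest, 1428479_at, had signals of 228, 277.8 and 204 in superior pools and 283.8, 276.7 and 215.7 in inferior pools. The difference of -0.38 belongs to a dim probe set, 1447084_at, with 25.8, 26.1 and 19 in superior pools and 31.3, 34.3 and 29.1 in inferior pools. These were the signals of the 19 that did not overlap, and the other 4 Nfatc1 probe sets did overlap.

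Klf2, a zinc finger factor that blood flow induces in endothelium, had signals of 349, 470.3 and 284 in superior pools and 420.7, 413.1 and 222.4 in inferior pools. Pool 7 was lowest in both regions, and the region difference was 0.09 ± 0.13. Klf4, a related flow-responsive factor that other tissues use as well, had 267.3, 414.4 and 295.2 in superior pools and 382.7, 374.1 and 303.5 in inferior pools for 1417394_at, a difference of -0.14 ± 0.13. Its second probe set gave 0.04 ± 0.14. For both Klf genes the superior value was the lower one in pool 1, by -0.27 for Klf2 and by -0.51 and -0.33 for the Klf4 probe sets. This did not hold in the other pools. In the same order, differences were 0.19, 0.15 and 0.01 in pool 6 and 0.35, -0.04 and 0.43 in pool 7.

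Egfl7, a protein that endothelial cells secrete into their matrix, had 4 probe sets, all with negative differences, from -0.15 ± 0.13 to -0.28 ± 0.13 on the log2 scale. The brightest, 1451428_x_at, had signals of 179.2, 188.1 and 208.2 in superior pools and 250, 183.8 and 244.1 in inferior pools. Superior was lower in pools 1 and 7 and about equal in pool 6. The 4 probe sets report on the same gene and are not independent, and 2 of them carry the suffix by which Affymetrix marks probes shared with other transcripts. The smallest adjusted p of the 4 was 0.486.

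The test between pool numbers passed for more of these probe sets than the test between regions. This pool term of the paired fit was tested after the values had been seen. It passed for 5 of the 19 probe sets (limma F test, Benjamini-Hochberg adjustment over all probe sets), 26.3% of them, against 14.1% of all probe sets. These were probe sets of Pecam1 (adjusted p = 0.000328), Emcn (0.00428) and Klf2 (0.0205) and 2 probe sets of Nfatc1 (0.00272 and 0.0148). For Pecam1 the highest pool was 3.33-fold above the lowest, and for Emcn 2.99-fold. Their region folds were 1.02 and 1.48. The 2 measures are unlike, since the first takes the extremes of the pools and the second is a mean over pools. The replicates of this test are the superior and the inferior array of a number, which may share embryos or handling. A small p therefore says that these 2 arrays agree more than arrays of different numbers do. Pool number stands here for whatever the pools differ in, embryos and laboratory handling alike, and these cannot be told apart.

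The genes did not share 1 order of the pools. Relative to pool 1, Pecam1 was higher by 1.74 in pool 6 and by 1.73 in pool 7 on the log2 scale, while Cdh5 differed by -0.19 and 0.05. Emcn was higher by 1.16 in pool 7 and Klf2 lower, at -0.60. Without pool 1, the test passed for 3 of the 19, Emcn, Klf2 and Nfatc1 1425761_a_at, and for 1.31% of all probe sets. Without pool 7 it passed for 2, Pecam1 and Nfatc1 1417621_at, against 16.7% of all, and without pool 6 for 8, against 22.3% of all.

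These 2 Nfatc1 probe sets varied in unlike ways across pools. 1417621_at had signals of 139.1, 239.3 and 255.3 in superior pools 1, 6 and 7 and 150.7, 219.5 and 218.4 in inferior pools, low in pool 1. 1425761_a_at had 137.1, 133.1 and 66.4 in superior pools and 124.5, 117.4 and 56.7 in inferior pools, low in pool 7. The ratio of the first signal to the second was 1.01, 1.8 and 3.84 in superior pools and 1.21, 1.87 and 3.85 in inferior pools. Only the change of this ratio between arrays can be read, not its size. It was nearly the same in both regions of a pool and differed between pools. Both traits follow from the choice of these 2 probe sets, which passed the pool test and varied in unlike ways. The brightest Nfatc1 probe set, 1428479_at, did not pass the pool test (adjusted p = 0.132).

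Measures of RNA and labelling also differed between pools. The ratio of the 5′ to the 3′ probe set of the Gapdh control was 0.769 in superior and 0.452 in inferior pool 1, and lay between 1.11 and 1.2 on the other 4 arrays. The middle probe set of the ribosomal RNA control had signals of 103.8 in superior and 95.6 in inferior pool 1, and between 475.3 and 785.6 on the others. Of 4 platelet markers tested, Ppbp and Pf4 passed the pool test and were low in pool 1, while Itga2b and Gp1bb did not pass it. Ppbp had signals of 5.6, 56.5 and 48.2 in superior pools and 5.3, 39.1 and 34.6 in inferior pools, and Pf4 had 70.2, 234.7 and 157.9 in superior pools and 74.2, 134.5 and 158.6 in inferior pools. Of 5 macrophage and leukocyte genes 2 passed the pool test, Csf1r and Cx3cr1. Relative to pool 1, Csf1r differed by 0.67 in pool 6 and -0.80 in pool 7 on the log2 scale, and Cx3cr1 by 1.19 and -0.13. Of 8 erythroid genes 4 passed it, among them Slc4a1, at 1.62 and 0.92, and Klf1, at 0.72 and 0.04. The part of these measures in the low Pecam1 and Nfatc1 1417621_at signals of pool 1 was not tested. In pool 7, where Emcn was high and Klf2 low, the Gapdh ratio was 1.19 in superior and 1.2 in inferior tissue, against 1.11 and 1.17 in pool 6. The same ratio of the actin control was 0.616 and 0.688 in pool 7, against 0.534 and 0.672 in pool 6. The middle ribosomal RNA signal was 475.3 and 483.7 in pool 7, against 785.6 and 617 in pool 6. The part of these measures in the Emcn and Klf2 values of pool 7 was not tested. The superior array of pool 6 stood apart in its hybridisation controls, at 1.69 times the median array.

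**Figure D3:**
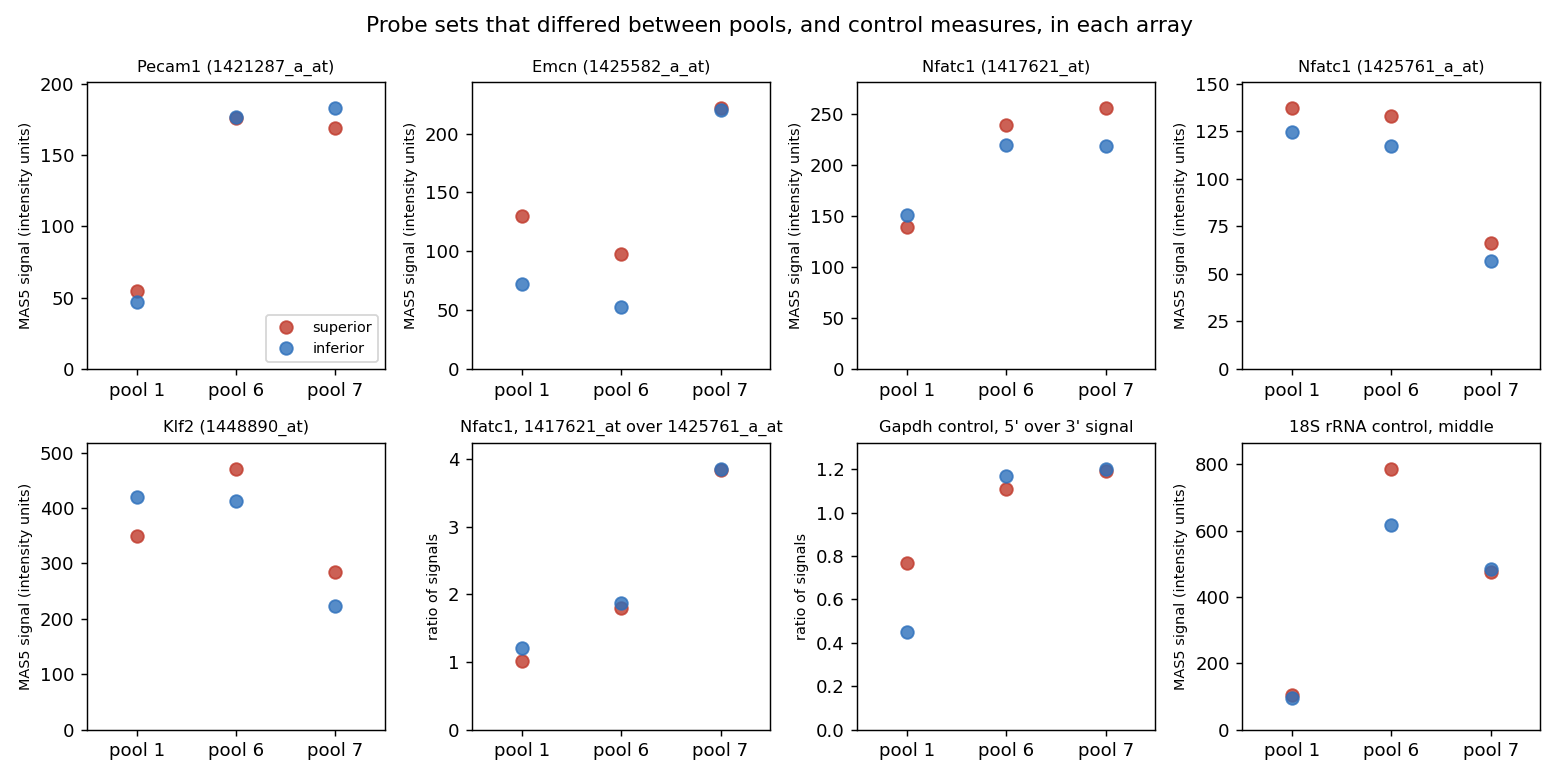
Each panel shows a value for pools 1, 6 and 7 (x axis) in superior (red) and inferior (blue) tissue, with the y axis linear and starting at 0. The first 5 panels give the MAS5 signal of the probe sets that differed between pools, and the last 3 give the ratio of 2 Nfatc1 signals, the 5′ to 3′ ratio of the Gapdh control and the signal of the ribosomal RNA control. Red and blue points of a pool lie close together for Pecam1 and for the Nfatc1 ratio, which ranges from 1.01 to 3.85.

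Across the 6 arrays the 10 genes did not share a profile. Over the 45 pairs of genes, each by its brightest probe set, Pearson's r ranged from -0.92 to 1 with a median of 0.06, and 23 pairs were positive. The arrays of a pool are not independent, so these values describe the arrays only. Npr3 and Cldn5 were the most alike pair (r = 0.996), and Emcn followed them with 0.855 and 0.86. Klf2 and Klf4 each had r = 0.88 with Nfatc1, while Nfatc1 and Emcn ran opposite ways (r = -0.92). Of 11185 other genes, those closest to the mean profile of the 10 were Kif2c, Aars2, Aup1, Xpo4, G3bp2, Dnph1, Rcl1, Meaf6, Tecr and Bbs5, with r between 0.989 and 0.971 over 6 arrays. None of these 10 was on a list of endothelial or other marker genes used here.

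No other endothelial gene passed the region test. Of 47 further endothelial genes 43 were tested and 43 were above background on all 6 arrays. In the paired fit 0 were called in either direction, against 0.16% of all probe sets, and 5 had an unadjusted p under 0.05, close to the 11% of all probe sets. Their median log2 difference was 0.01, with 22 higher and 21 lower in superior pools, beside 0.06 for the 10 identity genes and -0.02 for all probe sets tested. The summed signal of the 43 was 10340 to 11470 in superior and 10210 to 10750 in inferior pools. Lyve1, a marker of lymphatic endothelium, and the adaptor gene Grap were above background on 0 arrays.

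Arhgap29, which acts downstream of Rasip1 in vessels, came closest to the threshold among them. Its signals were 840, 634.5 and 850.7 in superior pools and 532.3, 509 and 582.6 in inferior pools. The regions did not overlap, which held for 9.21% of all probe sets and, among these endothelial genes, also for Bmx and others. The log2 difference was 0.50 ± 0.10 (adjusted p = 0.127). S1pr1, a receptor for the lipid sphingosine phosphate, had 121.5, 113.8 and 179 in superior and 105.5, 82.8 and 121.9 in inferior pools, a difference of 0.39 ± 0.12. Podxl, a sialomucin of the luminal surface, had 0.35 ± 0.12, with 0.47, 0.56 and 0.02 in pools 1, 6 and 7. The largest negative differences were those of the kinase gene Bmx (-0.41 ± 0.14), the scavenger receptor gene Stab1 (-0.33 ± 0.15) and the arterial Notch receptor gene Notch4 (-0.27 ± 0.10). Adjusted p for these 5 genes lay between 0.336 and 0.47.

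Of 12 further endocardial genes 10 were tested, 5 higher and 5 lower, with a median of -0.05 and 0 called. Nrg1, the neuregulin that endocardium sends to muscle, differed by -0.30 ± 0.16, Tmem100 by -0.28 ± 0.21 and Gata5 by -0.18 ± 0.10. At the other end stood Cgnl1 at 0.30 ± 0.15, Cytl1 at 0.22 ± 0.21 and Tmem108 at 0.13 ± 0.10. Genes tied to shear stress, to which Klf2 and Klf4 belong by function, had a median of 0.02 over 12 tested, with 8 higher and 0 called. Krit1, a cerebral cavernous malformation gene that restrains Klf2 and Klf4, differed by -0.30 ± 0.12 (adjusted p = 0.433), the flow sensor Piezo1 by -0.18 ± 0.09 and Ccm2, a partner of Krit1, by -0.11 ± 0.08. The protease gene Adamts1 differed by 0.19 ± 0.11, the angiopoietin receptor gene Tek by 0.16 ± 0.11 and Thbd (thrombomodulin) by 0.12 ± 0.14. Thbd was lowest in pool 7 in both regions, as Klf2 was, with 195, 270.9 and 142.7 in superior pools and 233.8, 233.3 and 106.5 in inferior pools (pool term, adjusted p = 0.0111). The pool term passed for 3 of these 12 genes, and they did not share 1 order. Tek (pool term, adjusted p = 0.0434) was lowest in pool 7 too. Edn1 (pool term, adjusted p = 0.0106) was lowest in pool 1, and higher by 0.39 in pool 7 on the log2 scale.

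Around Nfatc1, 15 genes of the calcineurin pathway were tested, with a median of -0.03, 6 higher, 9 lower and 0 called. Ppp3cc, a catalytic subunit of calcineurin, had -0.62 ± 0.22 (adjusted p = 0.393), from signals of 29.5, 25.6 and 12 in superior and 56.6, 26.4 and 26 in inferior pools. The calcium channel gene Itpr2 had -0.22 ± 0.15 and Nfatc4 -0.14 ± 0.11, while the calcium sensor gene Stim1 had 0.24 ± 0.16, Nfatc2 0.23 ± 0.21 and the kinase gene Dyrk1a 0.08 ± 0.11. Around Cdh5, 11 junction genes were tested, with a median of 0.09, 8 higher, 3 lower and 0 called. Jam2 had 0.26 ± 0.15, Ptprb, the phosphatase that acts on VE-cadherin, 0.25 ± 0.12 and F11r 0.15 ± 0.09. Ctnnd1, the catenin that holds VE-cadherin at the membrane, had -0.15 ± 0.09, with -0.15, -0.16 and -0.15 in the 3 pools, while Jup had -0.01 ± 0.16 and Cdh2 0.00 ± 0.09.

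The pool term passed for further genes of these lists whose region difference was not called. It passed for 9 of the 43 endothelial genes and 5 of the 10 endocardial ones, each by its brightest probe set, against 14.1% of all probe sets. Passing was not particular to these lists. It passed for 4 of 8 erythroid, 3 of 6 second heart field, 5 of 12 cushion mesenchyme, 4 of 11 epicardial and 4 of 14 heart muscle genes. For neural crest it passed for 0 of 7 and for liver for 0 of 3. Tie1, an endothelial receptor kinase, had signals of 65.5, 152.7 and 148.8 in superior pools and 61.4, 128.4 and 180.1 in inferior pools, low in pool 1 as Pecam1 was. Rasip1, which organises vessel lumens, had 9.5, 29.9 and 44.3 in superior pools and 6.1, 35.6 and 39.6 in inferior pools. Vwf, the von Willebrand factor gene, ran otherwise, with 268.2, 187.6 and 260 in superior pools and 316.1, 165.5 and 270.8 in inferior pools.

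Set against the median of the 43 endothelial genes on the same array, Emcn had log2 differences of 0.69, 0.69 and 0.14 in pools 1, 6 and 7, Cldn5 0.51, 1.57 and -0.19, and Npr3 0.09, 0.44 and 0.04. Those of Cdh5 were -0.05, -0.21 and 0.16, and those of Egfl7 1451428_x_at -0.60, -0.14 and -0.10. These values have no test.

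Among the markers of other tissues, those of the epicardium included called genes. Of 11 epicardial genes tested 10 were higher, with 4 called and a median of 0.88, where 44.9% of all probe sets were higher and 0.16% were called. The summed signal was 3935 to 4786 in superior against 3553 to 3712 in inferior pools. Of 14 genes of heart muscle 12 were higher, with 0 called and a median of 0.23, and of 12 genes of cushion mesenchyme 9 were lower, with 0 called and a median of -0.17. Of 8 erythroid genes 5 were higher, with a median of 0.13 and of 0.47 in pool 6, where Cldn5 had its largest difference. Their summed signal was 14070 to 23180 in superior and 12680 to 16140 in inferior pools. Macrophage and leukocyte genes had a summed signal of 93.3 to 246 in superior and 100 to 271.1 in inferior pools for the 5 tested of 10 listed. The highest inferior sum, in pool 1, held a Ptprc signal of 155.4, which was between 2.8 and 18.8 on the other 5 arrays. Csf1r reached 134 in superior and 130 in inferior pools, and Itgam was above background on 0 arrays. Of 4 platelet genes 3 were higher, with a median of 0.28. The part of these tissues in the Emcn and Cldn5 values was not tested. Genes of the second heart field had a median of -0.25 over 6 tested and those of neural crest one of -0.20 over 7, with 0 called in either list. The median of 3 liver genes was -0.06, with -2.03 in pool 1 and 1.52 in pool 6, and Alb was above background on 0 arrays.

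**Figure D4:**
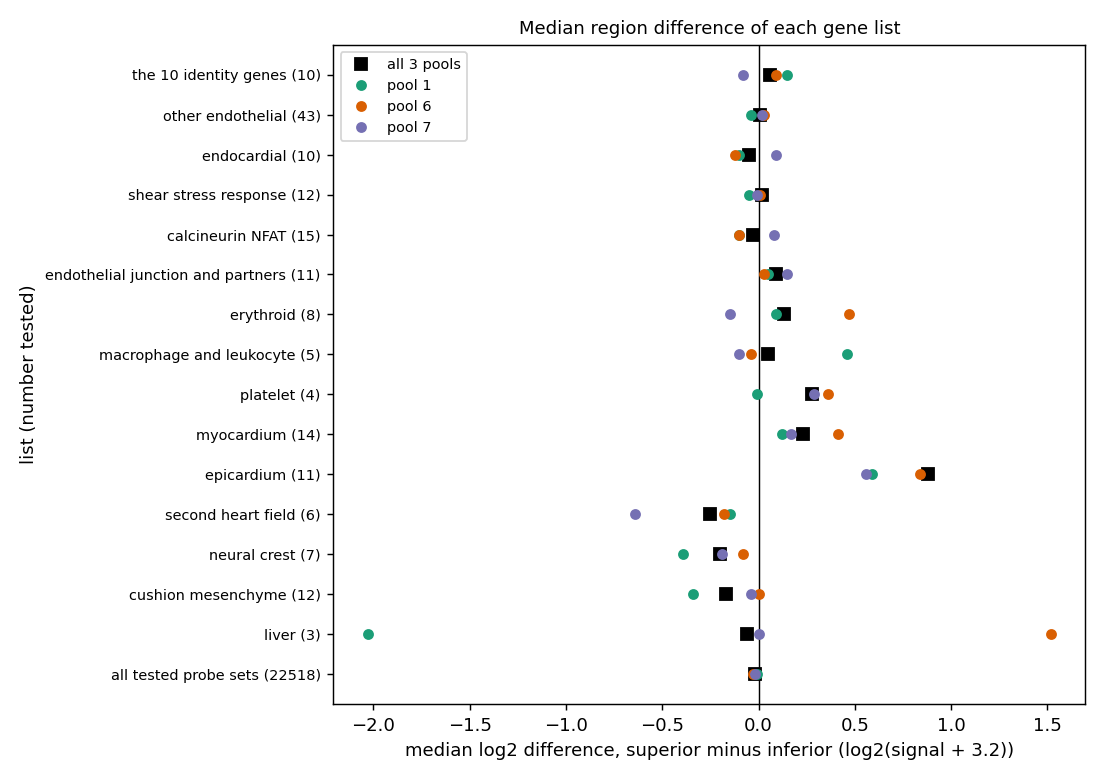
Each row is a gene list, with the number of genes tested in brackets, and the last row gives all 22518 tested probe sets. The x axis gives the median log2 difference, superior minus inferior, in all 3 pools (square) and within pools 1, 6 and 7 (circles). The 5 lists below the 10 identity genes lie between -0.05 and 0.09, and the epicardial list lies at 0.88. These 5 are the other endothelial, endocardial, shear stress, calcineurin and junction lists. Some genes stand on several of them, and the calcineurin and junction lists are not made of endothelial markers only.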

How the data were processed

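Total RNA of 3 superior and 3 inferior outflow tract pools was measured on 6 arrays. Each deposited value is a linear intensity from MAS5, the 1 tool in the submitters' processing notes. The version and the scaling target are not given in the sources used here, but every array had a mean of 100.0 once 2% of values were trimmed from each end. Precision is limited by the number of arrays, which carry no read depth. Of 45101 probe sets 64 are controls and were left out of the tests. The platform annotation named 1 gene for 34945 of the others, several for 932 and none for 9160. All 10 symbols matched RefSeq (GRCm38.p6) by gene ID.

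From the deposited intensities, log2(signal + 3.2) was computed, 3.2 being the 25th percentile of all signals other than controls. The 22518 probe sets with a mean above the median were fitted with limma 3.58.1 in R 4.3.3 (lmFit, eBayes with trend and robust variance), superior minus inferior with pool number as a block. Whether the numbers pair the arrays was checked from each array's deviations from its region's mean, since the labels give only the shared number. Across probe sets, same-numbered arrays had correlations of 0.79, 0.43 and 0.51 in pools 1, 6 and 7, above the limit of 0.1. Superior 6 with inferior 7 (0.18) and superior 7 with inferior 6 (0.20) passed it too. Genes with several probe sets enter lists by the brightest tested one. With 3 pools an exact sign-flip test of a single value can give no p below 0.25, so none is given. The genes and lists were chosen with earlier results of these data known. Named besides the 10 genes are the 10 genes closest to the mean profile. Of the endothelial, endocardial, shear stress, calcineurin and junction lists, called genes and the 3 largest differences in either direction are named too. Genes named for pool or platelet values were chosen after their values were seen. Alternatives were other normalizations, offsets, filters and variance settings, no block, and leaving out pools or arrays.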

Additional observations from a re-analysis of the deposited data

How the results depend on the processing

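Under 18 other settings, 1 of 337 recomputed differences of the 10 genes' probe sets passed the threshold, that of Emcn without pool 7, and 26 had the opposite sign, all on leaving out a pool or an array. Their ranges on such omission were -0.10 to 0.35 for Nfatc1 1417621_at, -0.17 to 0.51 for 1425761_a_at and -0.12 to 0.24 for 1447085_s_at, -0.05 to 0.38 for Npr3 1448024_at, -0.03 to 0.11 for Cdh5, -0.59 to 0.56 for Pecam1, -0.21 to 0.27 for Klf2, -0.32 to 0.05 and -0.24 to 0.22 for the Klf4 probe sets, and -0.18 to 0.33 for Plvap. Those that kept their sign ranged from 0.16 to 1.16 for Emcn, 0.17 to 1.25 for Cldn5, 0.06 to 0.45 for Npr3 1435184_at, -0.44 to -0.04 for the 4 Egfl7 probe sets, -0.25 to -0.03 for Nfatc1 1428479_at and -0.45 to -0.25 for 1447084_at. Probe sets called among all numbered 36, and 0 with no replicate block, 22 with an offset of 1, 1 without the filter, 2 in the top 25% by signal, 0 without trend and robust variance, and 0 to 231 on leaving out a pool or an array. With no replicate block 0 probe sets of the 10 genes were called. On leaving out a pool or an array, called probe sets of these genes numbered 0 to 1, called endothelial genes 0 to 1, the 10 genes' median ranged from -0.01 to 0.20 and the endothelial median from -0.03 to 0.06, which was 0.05 under cyclic loess. The pool term passed for 1660 of all probe sets without the filter, 1444 in the top 25%, and 1970 without trend and robust variance (3 of the 10 genes' probe sets, against 5), and for 295 to 5019 on leaving out a pool (2 to 8). The cause of these changes was not tested. Signals near background, such as those of the untested Cdh5 and Npr3 probe sets, limit what can be said of dim genes.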
